A study of Mus musculus with 8 samples.

Results

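The 37 genes described here carry out the unfolded protein response, the programme with which a cell adjusts the folding capacity of its endoplasmic reticulum (ER). They were chosen by gene name from the 41096 genes of the deposited count table, where all 37 have a row, and they fall into an IRE1-XBP1 arm (7 genes), a PERK-ATF4 arm (8 genes), ATF6 with the ER chaperones (13 genes) and ER-associated degradation (9 genes). Counts of chaperone genes out of 13 include Atf6 and Atf6b, which are transcription factors. Left ventricular RNA was sequenced from 4 mice on a fat-rich diet to which L-NAME had been added (HFD-LNAME) and from 4 mice on Normal Chow. L-NAME blocks nitric oxide synthases. The diet lasted 9 weeks from an age of 12 weeks, and the series design gives the L-NAME content as 0.5%. All 8 libraries carry the strain label C57BL/5NJ, while the gene identifiers of the deposited table are those of C57BL/6NJ. This combination is used as a mouse model of heart failure with preserved ejection fraction. The series design speaks of male and female cohorts with Nnt intact (NNT+/+) or deleted (NNT-/-), but the labels of these libraries give neither sex nor genotype, nor a batch. Each label carries a mouse number of its own, so a library is taken as 1 animal. The comparison asks whether the transcripts of this stress response differ in the ventricle after the diet.

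The unfolded protein response starts at 3 sensors in the ER membrane. IRE1, encoded by Ern1, is a nuclease that splices Xbp1 mRNA into the message for an active transcription factor, which raises genes of folding, translocation and degradation. PERK, encoded by Eif2ak3, phosphorylates the translation factor eIF2-alpha, which lowers protein synthesis and favours translation of ATF4. ATF6 moves to the Golgi, is cut there and enters the nucleus to raise ER chaperones such as Hspa5 (BiP). In heart muscle the ER is continuous with the sarcoplasmic reticulum, and the response has been studied in pressure overload, ischaemia and diet models. Much of this signalling is set by splicing, phosphorylation and cleavage, which gene-level counts do not show. Spliced and unspliced Xbp1 share 1 row of the count table.

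The ER stress response element (ERSE) is the site through which ATF6 and XBP1 are known to act on chaperone genes, and its copies in the members' promoters are printed because the chaperones carried the pattern described further on. RefSeq promoter windows (build GRCm38.p6, 250 bases before to 50 bases after the start of a gene) were found for 33 of the 37 genes. The motif, CCAAT and CCACG with 9 free bases between them, was searched on both strands and was present in 9 of the 33, which is 27.3%, against 39 of all 32851 windows, which is 0.119%. Capitals mark the fixed letters of the motif, and each site is written 5′ to 3′ in the motif's own direction.
Hspa5: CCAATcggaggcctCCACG
Hsp90b1, distal site: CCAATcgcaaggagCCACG
Hsp90b1, proximal site: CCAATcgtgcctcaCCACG
Calr: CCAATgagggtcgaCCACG
Canx: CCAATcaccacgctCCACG
Creld2: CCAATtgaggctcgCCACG
Pdia6: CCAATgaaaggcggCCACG
Dnajc3: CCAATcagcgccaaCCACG
Syvn1: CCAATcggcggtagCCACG
Derl3: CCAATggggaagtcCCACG

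The Hspa5 site lies 65 to 47 bases before the start of the gene, and the Hsp90b1 sites lie 212 to 194 and 107 to 89 bases before it. The 250 bases upstream of 3 genes are printed for their context, with ERSE and the shorter motifs below in capitals. Hspa5 (chr2:34771840-34772089, plus strand) and Hsp90b1 (chr10:86705445-86705694, minus strand) are abundant chaperones that carry the motif. Herpud1 (chr8:94386179-94386428, plus strand), a degradation gene, is the member that ran opposite to them across the libraries.
Hspa5: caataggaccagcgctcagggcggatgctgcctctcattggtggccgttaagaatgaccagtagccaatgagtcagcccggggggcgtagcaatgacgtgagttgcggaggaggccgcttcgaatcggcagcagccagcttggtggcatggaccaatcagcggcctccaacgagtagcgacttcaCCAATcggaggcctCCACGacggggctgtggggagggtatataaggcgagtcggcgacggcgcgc
Hsp90b1: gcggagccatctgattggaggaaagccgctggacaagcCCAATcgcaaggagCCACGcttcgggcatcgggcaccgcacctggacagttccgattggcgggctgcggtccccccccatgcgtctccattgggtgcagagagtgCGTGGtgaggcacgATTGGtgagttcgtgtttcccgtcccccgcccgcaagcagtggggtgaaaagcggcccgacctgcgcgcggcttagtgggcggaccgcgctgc
Herpud1: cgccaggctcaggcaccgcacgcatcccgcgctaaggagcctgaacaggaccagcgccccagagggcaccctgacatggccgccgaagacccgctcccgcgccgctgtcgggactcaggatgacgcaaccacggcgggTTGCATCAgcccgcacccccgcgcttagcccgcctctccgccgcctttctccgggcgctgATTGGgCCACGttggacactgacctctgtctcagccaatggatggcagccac

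In the Herpud1 window TTGCATCA, a C/EBP-ATF response element bound by ATF4, stands 112 to 105 bases before the start, and the related ERSE-II, ATTGG and CCACG with 1 free base between them, stands 52 to 42 bases before it. ERSE-II was in 2 member windows (Herpud1 and Dnajb11) against 0.0365% of all windows, and the ATF4 element in 2 (Herpud1 and Chac1) against 0.895%. TGACGTGG, a form of the unfolded protein response element, was in 1 member window (Vcp) against 0.676%. Variants of it were not searched, and the Hspa5 window holds tgacgtga, which differs in its last base. All motifs were searched on both strands, and no 2 sites overlapped. A match describes the letters in the window and is no evidence of binding.

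Total counts per library were 31522074 to 41047658 with HFD-LNAME and 41852705 to 52053633 with Normal Chow, and 14875 genes passed the filter on low counts. The libraries differed in a way their labels do not give. Myl7, a myosin light chain of the atrium, stood at 10.2, 685, 293 and 216 CPM, that is counts scaled to a common library total, in HFD-LNAME libraries 1 to 4, against 290, 0.713, 282 and 1.02 CPM in Normal Chow libraries 1 to 4. All 10 atrial markers listed had a row, and their summed level was 213 to 4394 CPM with HFD-LNAME and 193 to 2306 CPM with Normal Chow. The label is left ventricle in every case, and 8 cardiomyocyte markers summed to 70750 to 90443 CPM with HFD-LNAME and 81097 to 96679 CPM with Normal Chow. The 5 libraries with Myl7 above 200 CPM are HFD-LNAME 2, 3 and 4 and Normal Chow 1 and 3, so that HFD-LNAME 1 is the only one of its group without that signal. The sum over 12 adipocyte markers was 123 to 175 CPM with HFD-LNAME and 75.4 to 92.9 CPM with Normal Chow. The sum over 12 markers of plasma and B cells was 18.1, 24.1, 112 and 14.4 CPM in HFD-LNAME libraries 1 to 4. With Normal Chow it was 8.89 to 15.5 CPM, so the high value belongs to HFD-LNAME 3 alone. The 8 smooth muscle and pericyte markers summed to 907 to 1082 CPM with HFD-LNAME, above the 689 to 896 CPM of Normal Chow. The largest part was Rgs5, which overlapped between the groups (507 to 634 and 471 to 604 CPM). The sums of 8 fibroblast markers (1002 to 1503 CPM with HFD-LNAME and 1006 to 1355 CPM with Normal Chow), 8 endothelial markers (1338 to 1680 and 1169 to 1424 CPM) and 7 macrophage markers (132 to 188 and 111 to 204 CPM) overlapped between the groups. None of these markers was at 0 in all libraries. In bulk tissue, fewer cells of a type and less RNA per cell cannot be told apart.

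Of the 37 genes, 36 were tested and none was called different between HFD-LNAME and Normal Chow at an adjusted p of 0.05 (edgeR quasi-likelihood test with Benjamini-Hochberg adjustment over all genes). Across all 14875 genes tested, 2 were called, or 0.0134%, so that the comparison has few calls anywhere. At an unadjusted p under 0.05 there was 1 of the 36 genes, or 2.78%, against 9.56% of all genes. The 4 values of each group did not overlap for the same 1 gene, Atf4, against 5.98% of all genes. With 1 library left out, the number at an unadjusted p under 0.05 was 3 without HFD-LNAME 3 or without HFD-LNAME 4, against 8.42% and 10.3% of all genes, and 2 without Normal Chow 1, 2 or 4, against 7.8%, 8.96% and 8.13% of all genes. The number without overlap was 3 without HFD-LNAME 4 or Normal Chow 4, against 11.3% and 9.09% of all genes, and 2 without HFD-LNAME 3 or Normal Chow 3, against 9.16% and 9.11% of all genes. Atf4 with HFD-LNAME lay wholly above Normal Chow, as did 2.74% of all genes. Wholly below Normal Chow lay 0 of the 36, against 3.24% of all genes. DESeq2 and limma-voom also called 0 of the genes and had 1 at an unadjusted p under 0.05, against 7.5% and 9.79% of all genes. The log2 fold changes of the 36 genes, HFD-LNAME over Normal Chow, ran from -0.20 (Atf6b) to 0.32 (Herpud1) with a median of -0.01, beside a median of 0.00 over all genes tested, and 16 were positive and 20 negative.

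The size of a difference was bounded for each gene by its 95% interval, which rests on the spread between these 8 libraries. All 36 intervals ended short of a 2-fold change in either direction. For 26 genes they stayed within 0.5 on the log2 scale, among them 11 of the 13 chaperone genes and 7 of the 8 tested degradation genes, 5 of the 7 genes of the IRE1-XBP1 arm and 3 of the 8 of the PERK-ATF4 arm. The widest interval was that of Asns, with -0.93 to 0.91, and narrow ones were those of Dnajb9, with -0.11 to 0.19, and Vcp, with -0.17 to 0.16. The authors' deposited table gives an adjusted p under 0.05 to 0 of these genes, and there the sign of the log2 fold change was that of the edgeR fit in 36 of 36. The deposited SE of Herpud1 was 0.35, against 0.25 in the edgeR fit, so its bound depends on the fit.

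**Figure D1:**
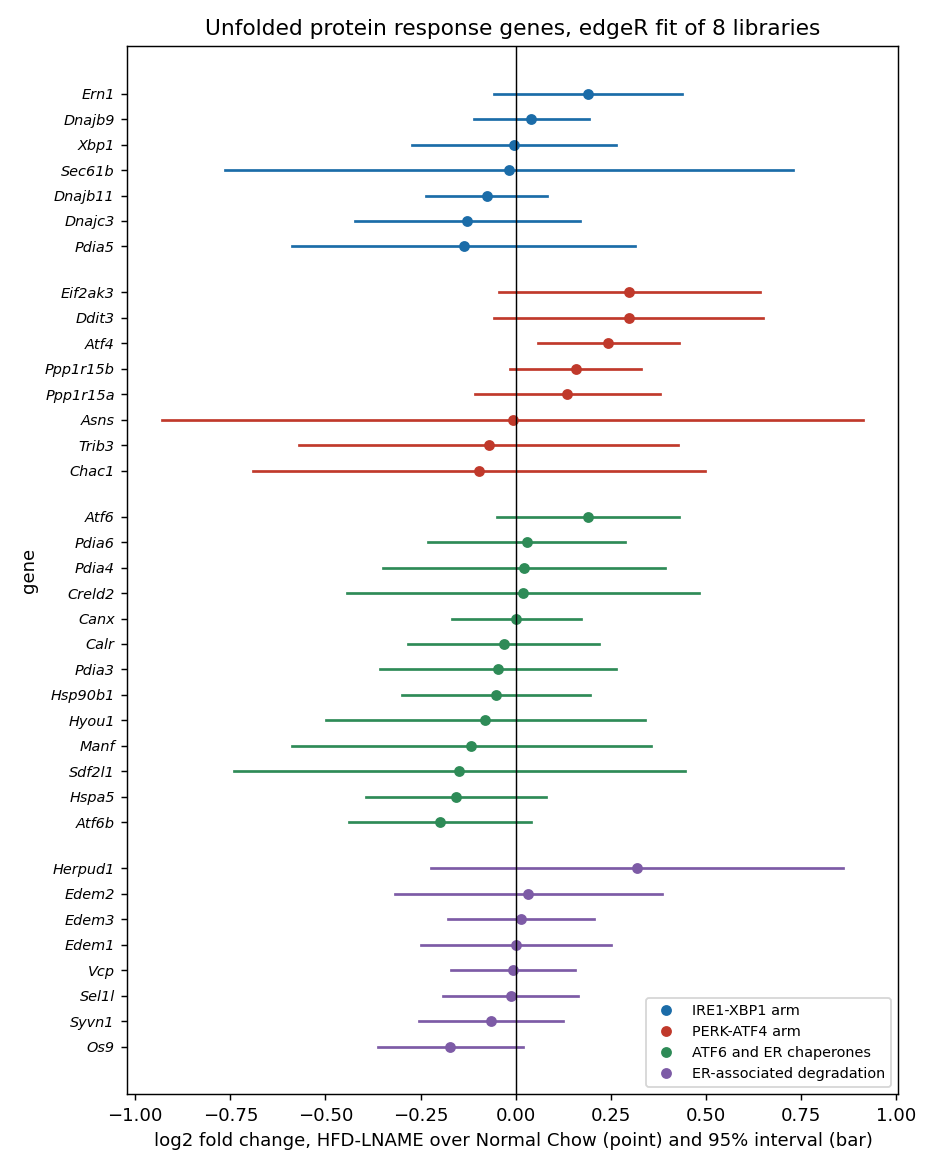
Log2 fold change of each tested gene, HFD-LNAME over Normal Chow (horizontal axis; point: edgeR estimate, bar: 95% interval, n = 4 libraries per group), ordered by arm and then by size. The interval of Atf4 is the only one that leaves out 0, the PERK-ATF4 genes hold several of the larger positive values, and most chaperones lie at or just below 0.

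Levels were set by length to compare the genes with each other, as CPM per kilobase of merged exons, for the 36 genes with a length (Ddit3 had none). Hspa5 stood highest, at a mean of 156 CPM per kilobase with HFD-LNAME and 174 with Normal Chow. Calr followed with 116 and 118, Hsp90b1 with 105 and 109, Vcp with 101 in both groups, and Canx with 93.3 and 93.2. Herpud1 averaged 108 CPM per kilobase with HFD-LNAME and 86.4 with Normal Chow. The ranges over libraries of neighbours in this order overlapped from Calr to Hsp90b1, Vcp and Canx in both groups, whereas every value of Hspa5 was above every value of Calr. At the low end Asns had a mean of 0.663 CPM per kilobase with HFD-LNAME and 0.669 with Normal Chow, and Derl3 had 0.085 and 0.028. The ventricle thus had the ER lectins and large chaperones as abundant mRNAs, and the ATF4 targets Trib3, Chac1 and Asns as scarce ones, in both groups.

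The IRE1-XBP1 arm had a median log2 fold change of -0.02 over its 7 genes, with 2 positive and 5 negative. Xbp1 stood at 45.5, 57.4, 56.9 and 53.0 CPM with HFD-LNAME and at 62.9, 52.4, 56.3 and 41.9 CPM with Normal Chow. The highest and the lowest of these 8 values both belong to Normal Chow, which spans the range of HFD-LNAME. The log2 fold change of Xbp1 was -0.00 ± 0.12 (SE, n = 4 each, edgeR adjusted p = 0.996), with an interval of -0.27 to 0.26. Ern1, the sensor itself, stood at 31.1, 32.9, 27.9 and 26.5 CPM with HFD-LNAME and at 22.3, 24.2, 28.2 and 29.1 CPM with Normal Chow. Its groups overlap, and its log2 fold change was 0.19 ± 0.11 (SE, edgeR adjusted p = 0.632).

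None of the targets of XBP1 passed the test either. Dnajb9, an ER co-chaperone that represses IRE1, averaged 54.9 ± 1.86 CPM with HFD-LNAME and 53.3 ± 1.86 CPM with Normal Chow (SD, n = 4 each). Dnajb11, a BiP co-chaperone, averaged 55.7 ± 1.65 CPM with HFD-LNAME and 58.8 ± 3.40 CPM with Normal Chow. Dnajc3, the co-chaperone p58IPK that also inhibits PERK, averaged 56.7 ± 6.68 CPM with HFD-LNAME and 61.9 ± 11.7 CPM with Normal Chow. Pdia5, a disulfide isomerase, averaged 5.02 ± 1.15 CPM with HFD-LNAME and 5.52 ± 0.722 CPM with Normal Chow. Sec61b, a subunit of the translocon through which new proteins enter the ER, had only 1.27 to 4.38 CPM with HFD-LNAME and 2.26 to 3.08 CPM with Normal Chow. Per length that is 2.18 CPM per kilobase with HFD-LNAME, below the 7.31 of Sec61g and the 6.21 of Sec61a1, the other subunits of the same channel. How reads that match near-identical copies were counted is not given, so the level of Sec61b is uncertain.

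The PERK-ATF4 arm had the highest median of the arms, with a log2 fold change of 0.15 over its 8 genes, 5 positive and 3 negative. Atf4, the transcription factor of the arm, stood at 67.2, 65.4, 70.0 and 79.5 CPM with HFD-LNAME and at 58.9, 54.7, 61.2 and 63.5 CPM with Normal Chow. Every HFD-LNAME library was above every Normal Chow library, by a margin of 65.4 against 63.5 CPM at the closest. Its log2 fold change was 0.24 ± 0.08 (SE, n = 4 each) with an interval of 0.06 to 0.43, an unadjusted p of 0.0144 and an edgeR adjusted p of 0.384, so that it does not pass the correction over all genes. Leaving out any library kept it between 0.18 and 0.28. The authors' deposited table gives it a log2 fold change of 0.25 with an adjusted p of 0.286.

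The sensor of the arm and the factor downstream of Atf4 had positive estimates with wider errors. Eif2ak3, which encodes PERK, stood at 14.5, 12.6, 15.3 and 10.1 CPM with HFD-LNAME and at 12.4, 8.98, 11.4 and 9.97 CPM with Normal Chow. Ddit3, which encodes the pro-apoptotic factor CHOP, stood at 22.6, 25.2, 17.9 and 26.5 CPM with HFD-LNAME and at 13.5, 19.3, 21.1 and 21.3 CPM with Normal Chow. HFD-LNAME 4 is the library that overlaps for Eif2ak3, HFD-LNAME 3 the one that overlaps for Ddit3. The log2 fold change was 0.30 ± 0.16 for Eif2ak3 (SE, edgeR adjusted p = 0.584) and 0.30 ± 0.16 for Ddit3 (SE, edgeR adjusted p = 0.603). Ppp1r15a and Ppp1r15b, the subunits that bring phosphatase to eIF2-alpha and so restore translation, averaged 56.1 ± 5.40 and 37.6 ± 1.90 CPM with HFD-LNAME against 51.0 ± 7.23 and 33.7 ± 1.48 CPM with Normal Chow (SD, n = 4 each). Neither passed the test, with an edgeR adjusted p of 0.742 for Ppp1r15a and 0.557 for Ppp1r15b.

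The other members of the arm, Trib3, Chac1 and Asns, had estimates at or just below 0. Trib3, a pseudokinase induced by CHOP, averaged 3.18 ± 0.411 CPM with HFD-LNAME and 3.34 ± 0.611 CPM with Normal Chow (SD, n = 4 each). Chac1, an enzyme that breaks down glutathione, averaged 3.95 ± 1.15 CPM with HFD-LNAME and 4.23 ± 1.07 CPM with Normal Chow. Asns, asparagine synthetase, stood at 0.972, 3.48, 1.18 and 1.61 CPM with HFD-LNAME and at 1.65, 1.52, 2.56 and 1.59 CPM with Normal Chow. Its highest value belonged to HFD-LNAME 2 and its lowest to HFD-LNAME 1, and its log2 fold change of -0.01 had an SE of 0.42. The log2 fold changes of Trib3 and Chac1 were -0.07 ± 0.23 and -0.10 ± 0.27 (SE), with intervals of -0.57 to 0.43 and -0.69 to 0.50.

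ATF6 and the ER chaperones had a median log2 fold change of -0.05 over 13 genes, with 5 positive and 8 negative. Hspa5, the chaperone BiP that holds the 3 sensors inactive, stood at 597, 685, 692 and 661 CPM with HFD-LNAME and at 843, 700, 800 and 594 CPM with Normal Chow. Normal Chow libraries 1, 2 and 3 lay above all 4 HFD-LNAME libraries, and Normal Chow 4 lay below them. The log2 fold change of Hspa5 was -0.16 ± 0.11 (SE, n = 4 each, edgeR adjusted p = 0.688). Hsp90b1 (GRP94), its partner in the ER lumen, stood at 383, 416, 485 and 417 CPM with HFD-LNAME and at 510, 403, 480 and 371 CPM with Normal Chow, and its log2 fold change was -0.05 ± 0.11 (SE, edgeR adjusted p = 0.925).

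Hyou1, Manf, Creld2 and Sdf2l1, which were less abundant, spread more widely relative to their level from library to library than Hspa5 and Hsp90b1. Hyou1 (GRP170), a nucleotide exchange factor of BiP, stood at 48.0, 70.0, 87.3 and 69.7 CPM with HFD-LNAME and at 93.2, 60.8, 81.4 and 55.1 CPM with Normal Chow. Manf, a secreted ER protein that protects stressed cells, stood at 29.6, 48.2, 47.4 and 52.5 CPM with HFD-LNAME and at 60.0, 41.5, 59.6 and 31.6 CPM with Normal Chow. In both genes HFD-LNAME 1 and Normal Chow 4 were the lowest libraries, 1 of each group, and Normal Chow 1 was the highest. Creld2, a disulfide isomerase of the ER, ran from 9.06 to 18.1 CPM with HFD-LNAME and from 11.4 to 18.3 CPM with Normal Chow, and Sdf2l1, a co-factor of BiP, from 3.03 to 6.76 CPM against 3.85 to 7.51 CPM. The log2 fold changes of these 4 genes lay between -0.15 (Sdf2l1) and 0.02 (Creld2), each with an SE of 0.19 to 0.27.

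The means of the disulfide isomerases and lectins differed by less than 1 SD between the groups. Pdia3 averaged 143 ± 18.6 CPM with HFD-LNAME and 148 ± 29.8 CPM with Normal Chow, Pdia4 32.6 ± 6.49 and 32.1 ± 6.34 CPM, and Pdia6 106 ± 3.04 and 104 ± 19.4 CPM (SD, n = 4 each). Calr and Canx, the calcium-binding lectins calreticulin and calnexin, averaged 334 ± 15.4 and 438 ± 23.0 CPM with HFD-LNAME against 341 ± 58.9 and 438 ± 28.5 CPM with Normal Chow. The sensor gene Atf6 stood at 201, 185, 217 and 176 CPM with HFD-LNAME and at 188, 141, 192 and 162 CPM with Normal Chow. Its relative Atf6b stood at 18.5, 19.4, 20.2 and 16.6 CPM with HFD-LNAME and at 24.5, 21.9, 19.1 and 20.2 CPM with Normal Chow. The groups overlap for both, and the log2 fold changes were 0.19 ± 0.11 for Atf6 (SE, edgeR adjusted p = 0.620) and -0.20 ± 0.11 for Atf6b (SE, edgeR adjusted p = 0.604).

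**Figure D2:**
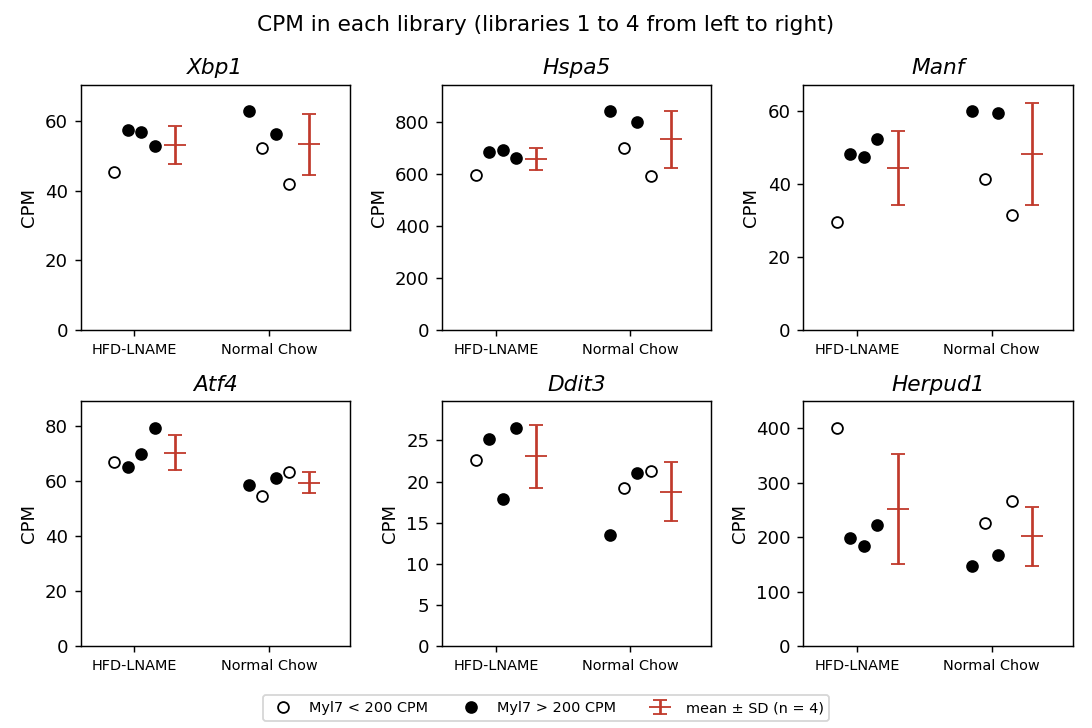
CPM (vertical axis, from 0) of 6 genes in each of the 4 HFD-LNAME libraries and the 4 Normal Chow libraries, with the mean ± SD (n = 4) in red. Filled points are libraries with Myl7 above 200 CPM. Only Atf4 has all HFD-LNAME points above all Normal Chow points. In Xbp1, Hspa5 and Manf the open points lie below the filled ones of their group, and in Herpud1 above them.

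ER-associated degradation, which pulls misfolded proteins back to the cytosol for the proteasome, had a median log2 fold change of -0.00 over 8 tested genes, with 4 positive and 4 negative. Edem1, Edem2 and Edem3, the mannosidase-like proteins that mark glycoproteins for removal, had log2 fold changes of 0.00 ± 0.11, 0.03 ± 0.16 and 0.01 ± 0.09 (SE). Of the retrotranslocation complex, Sel1l was at -0.01 ± 0.08, its ubiquitin ligase partner Syvn1 at -0.07 ± 0.09 and the ATPase Vcp at -0.01 ± 0.07 (SE) on the same scale. Os9, a lectin of that complex, stood at 57.6, 56.6, 61.7 and 54.1 CPM with HFD-LNAME and at 71.6, 57.7, 61.0 and 68.7 CPM with Normal Chow. HFD-LNAME 3 overlaps with Normal Chow, and the log2 fold change of Os9 was -0.17 ± 0.09 (SE, edgeR adjusted p = 0.563).

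Herpud1, a membrane protein that gathers the degradation complex and that ATF4, ATF6 and XBP1 can all raise, had the largest positive estimate of the 36 genes. It stood at 400, 199, 183 and 223 CPM with HFD-LNAME and at 147, 226, 168 and 266 CPM with Normal Chow. HFD-LNAME 1 was far above the other 7 libraries, and the remaining 3 HFD-LNAME libraries lay within the range of Normal Chow. The log2 fold change was 0.32 ± 0.25 (SE, n = 4 each, edgeR adjusted p = 0.726), and 0.01 without HFD-LNAME 1. Derl3, a channel-like protein of secretory cells, did not pass the filter on low counts, with 0, 15, 8 and 3 counts with HFD-LNAME and 3, 0, 7 and 0 counts with Normal Chow. A count of 0 allows a level of up to 0.0857 CPM in HFD-LNAME 1 and up to 0.0578 and 0.0635 CPM in Normal Chow 2 and 4, and these limits cover counting error only.

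For part of the genes, the spread within each group went with the atrial transcripts. In 14 of the 36 genes, or 38.9%, every library with Myl7 above 200 CPM was above every library without it, in HFD-LNAME and in Normal Chow alike, whereas 7.16% of all genes tested had that order. The chaperones held 8 of the 14, namely Hspa5, Hsp90b1, Hyou1, Sdf2l1, Manf, Creld2, Pdia3 and Pdia4, out of 13 genes. The IRE1-XBP1 arm held 3 of 7, which were Xbp1, Dnajc3 and Dnajb11. Edem1 and Syvn1 of the degradation genes and Asns of the PERK-ATF4 arm complete the number. Herpud1 was the 1 gene in the opposite order, which 6.97% of all genes had. The order within HFD-LNAME rests on library 1 alone, and chaperone genes are known to be raised together, so that these counts are not independent observations. The order was noticed in these data and is given as a description, with no test.

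Within Normal Chow the order rests on 2 libraries against 2. There 19 of the 36 genes were higher in libraries 1 and 3 than in libraries 2 and 4, against 19.1% of all genes. Among them were 11 of the 13 chaperone genes, Atf6 included. The opposite order was found for Herpud1 alone, against 19.2% of all genes. In HFD-LNAME 18 of the 36 genes had their lowest value in library 1, against 27.8% of all genes, and 3 genes had their highest value there (Herpud1, Ppp1r15b and Canx), against 28% of all genes. The median deviation of the 13 chaperone genes from their mean over all libraries was -0.21, 0.02, 0.12 and 0.01 on the log2 scale in HFD-LNAME 1 to 4, against 0.26, -0.09, 0.17 and -0.33 in Normal Chow 1 to 4. Both extremes were thus Normal Chow libraries, and Normal Chow 1 was the highest of all 8 libraries for 9 of the 13 genes. The PERK-ATF4 genes did not follow this course, with median deviations of 0.10, 0.09, 0.04 and 0.18 in HFD-LNAME 1 to 4 against -0.13, -0.17, 0.02 and 0.01 in Normal Chow 1 to 4. Of the 8 tested genes with an ERSE, 5 had the order in both groups, and of the 24 tested genes with a promoter window but no ERSE, 7 had it.

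**Figure D3:**
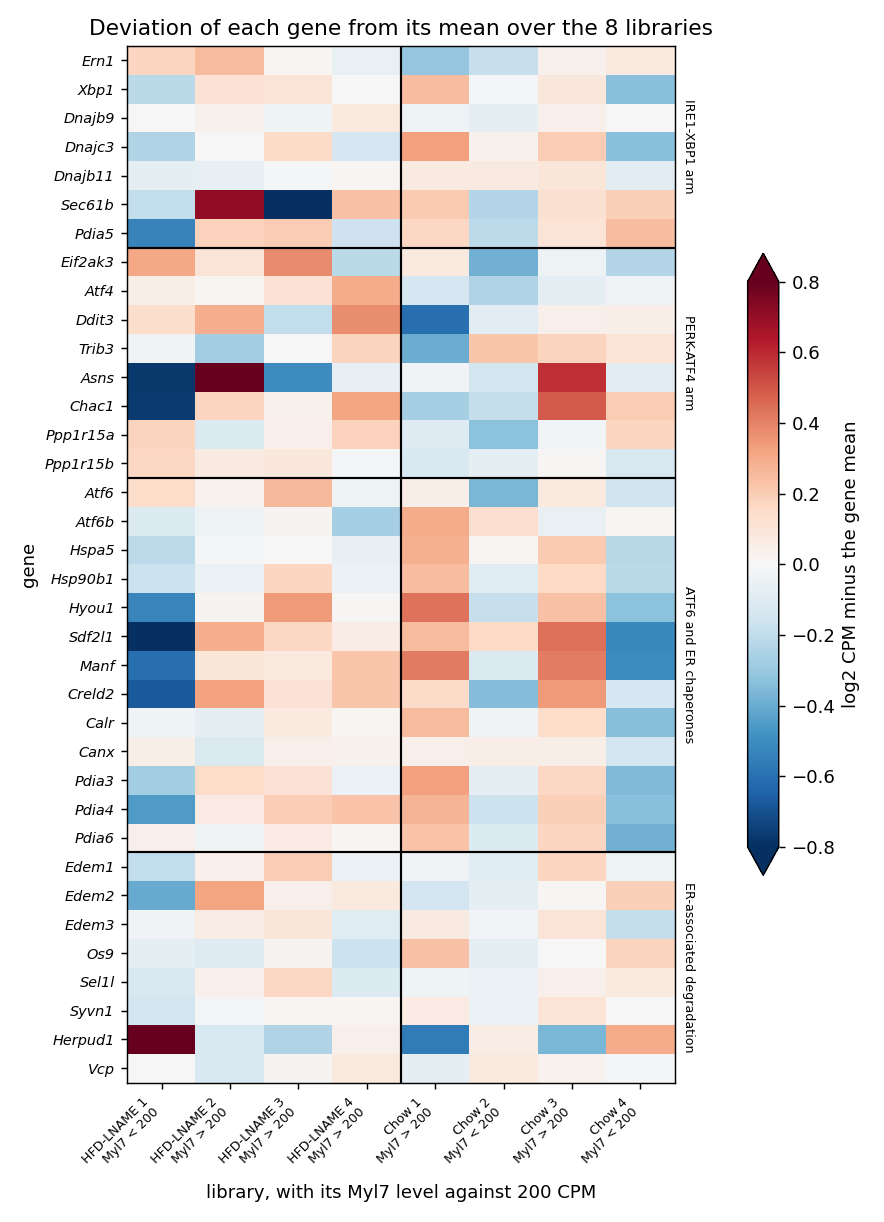
Deviation of each tested gene (rows, by arm) from its own mean over the 8 libraries, in log2 CPM, red above and blue below, with values past 0.8 in the darkest colours. Columns are the 4 HFD-LNAME and then the 4 Normal Chow libraries, each marked by its Myl7 level. Of the 13 rows of ATF6 and the ER chaperones, 10 are blue in HFD-LNAME 1 and 12 in Normal Chow 4. Red are 13 of them in Normal Chow 1 and 12 in Normal Chow 3, and Herpud1 runs the other way.

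Because that signal was unevenly placed, with 3 of 4 HFD-LNAME libraries against 2 of 4 Normal Chow libraries, the comparison was also fitted with the mean log2 level of the atrial markers as a covariate, and within the 5 libraries with Myl7 above 200 CPM. Of the 10 markers in that mean, 8 had the order of Myl7 in both groups, but Nr2f2 and Clec4a1 did not. Nr2f2 separated the diet groups (15.6 to 18.6 CPM with HFD-LNAME and 10.2 to 13.3 CPM with Normal Chow), so the covariate is partly tied to them. With the covariate the chaperone genes had a median log2 fold change of -0.17, with 12 of 13 negative, against -0.05 and 8 of 13 negative in the fit of 8 libraries without it. Within the 5 libraries the median was -0.18, again with 12 of 13 negative. Of all genes, 49.6% were negative with the covariate and 48.8% within the 5 libraries. The chaperones had shown the atrial order in these same libraries, so that the shift is no independent support for a difference. They are known to be raised together, and the 13 signs are not separate observations. Hspa5 was at -0.24 ± 0.08 with the covariate (SE, unadjusted p = 0.0141, edgeR adjusted p = 0.316) and at -0.27 ± 0.10 within the 5 libraries (SE, unadjusted p = 0.0179, edgeR adjusted p = 0.510). Manf was at -0.32 ± 0.12 and -0.28 ± 0.10 (SE) in the same order, with an edgeR adjusted p of 0.364 and 0.521. None of the genes was called in either fit. At an unadjusted p under 0.05 there were 5 genes with the covariate (Hspa5, Hyou1, Manf, Atf4 and Herpud1), against 10.6% of all genes, and 5 within the 5 libraries (Hspa5, Manf, Dnajc3, Atf4 and Herpud1), against 8.21% of all genes.

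Herpud1 came nearest to a call in these fits. With the covariate its log2 fold change was 0.53 ± 0.12 (SE, unadjusted p = 0.00106, edgeR adjusted p = 0.142), the lowest adjusted p of any of the 36 genes in any fit made, and within the 5 libraries it was 0.36 ± 0.12 (SE, edgeR adjusted p = 0.494). In the 5 libraries its values were 199, 183 and 223 CPM with HFD-LNAME and 147 and 168 CPM with Normal Chow. These do not overlap, as was the case for 25.2% of all genes in the 5 libraries. Its estimate was 0.01 without HFD-LNAME 1 and 0.63 without HFD-LNAME 2 and 3, the libraries highest in adipocyte transcripts. Without those 2 libraries, Herpud1 and Atf4 were the genes with an unadjusted p under 0.05, against 7.7% of all genes. Atf4 kept its estimate, at 0.23 ± 0.09 with the covariate and 0.26 ± 0.11 within the 5 libraries (SE). The 8 PERK-ATF4 genes were all positive within the 5 libraries, with a median of 0.10, and 5 of 8 were positive with the covariate. Whether the atrial signal has a part in any of these values was not tested, and sex and genotype cannot be set against them.

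**Figure D4:**
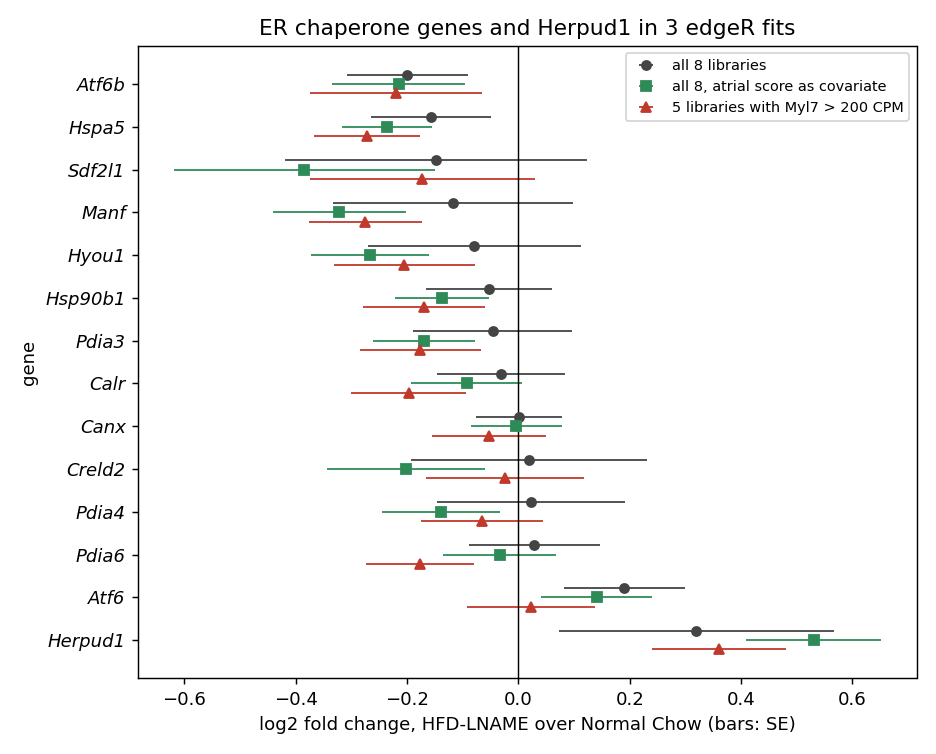
Log2 fold change, HFD-LNAME over Normal Chow, with its SE (bars) for ATF6, the ER chaperones and Herpud1 in the fit of all 8 libraries (circles), with the atrial markers as a covariate (squares) and within the 5 libraries with Myl7 above 200 CPM (triangles). Most chaperone estimates lie further below 0 in the covariate and 5-library fits, and those of Herpud1 stay above 0.

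The wider pathway was read from 10 lists of related genes that hold 162 genes outside the 37, of which 152 were tested. None was called, 9 had an unadjusted p under 0.05, which is 5.92%, and 8 had groups that did not overlap, which is 5.26%, both below the 9.56% and 5.98% of all genes. The lowest adjusted p was that of Gars1, the glycyl-tRNA synthetase that ATF4 is known to raise, which averaged 73.9 ± 2.53 CPM with HFD-LNAME and 86.7 ± 5.31 CPM with Normal Chow (SD, n = 4 each, log2 fold change -0.23 ± 0.07 SE, edgeR adjusted p = 0.335). Its groups did not overlap, and its direction is the opposite of that of Atf4. Among the 12 tested tRNA synthetases 6 log2 fold changes were positive and 6 negative, with Yars1 at -0.14 and Lars1 at 0.12.

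The other targets of ATF4 pointed both ways. Of 22 tested, 13 were positive and 9 negative, with a median of 0.13. An unadjusted p under 0.05 was found for 3, or 13.6%, against 9.56% of all genes. Psat1, of serine synthesis, averaged 5.47 ± 1.55 CPM with HFD-LNAME and 3.73 ± 0.815 CPM with Normal Chow, and Slc3a2, an amino acid transporter chain, 44.3 ± 5.94 and 36.1 ± 5.27 CPM (SD, n = 4 each). Sesn2, a stress-induced inhibitor of mTORC1, averaged 4.28 ± 1.47 CPM with HFD-LNAME and 6.85 ± 1.85 CPM with Normal Chow, which is -0.68 ± 0.27 on the log2 scale (SE, edgeR adjusted p = 0.460). In the eIF2 list, which holds the other eIF2 kinases and the exchange factor eIF2B, 8 of the 10 tested genes outside the 37 were negative, with Eif2b1 at -0.26, Eif2ak2 at -0.32 and Eif2b3 at 0.18.

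Among the relatives of ATF6 and the proteases that cut them, 6 of 7 tested were positive. Crebzf and Mbtps1 (site-1 protease) were at 0.17 and 0.14 on the log2 scale and Creb3 at -0.19. The groups did not overlap for these 3 of the 7 genes, against 5.98% of all genes. The other folding and oxidation enzymes of the ER had 11 positive and 13 negative. Dnajc1 was at 0.20, Dnajc10 at 0.14 and Sil1, an exchange factor of BiP, at -0.17, and their groups did not overlap either. The order of the atrial transcripts was found in both groups for 7 of these 24 genes, against 7.16% of all genes. Dab2ip (0.29) and Mapk8 (0.11) had the smallest p of the IRE1 partners beside Bloc1s1, which averaged 0.563 ± 0.240 CPM with HFD-LNAME and 1.13 ± 0.776 CPM with Normal Chow (SD, n = 4 each), and Erlec1 (-0.25), Selenos (-0.24) and Rnf139 (-0.13) had the smallest p of the other degradation genes, of which 11 were positive and 11 negative. The translocon list had 10 positive and 12 negative, with Srp19 at -0.19, Srp9 at -0.16 and Sec11c at -0.21. Of the cardiac ER and calcium genes 10 of 14 were positive, while Casq2, the calcium buffer of the sarcoplasmic reticulum, was at -0.23 ± 0.11 (SE, edgeR adjusted p = 0.542), with Stim1 at 0.17 and Rcn1 at 0.17. In the mitochondrial proteostasis list 9 of 12 were negative, with Dnaja3 at -0.18, Afg3l2 at -0.18 and Hspa9 at -0.13. No gene of these lists passed the edgeR test after adjustment over all genes.

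The 5 genes outside the 37 whose levels followed Hspa5 most closely across the 8 libraries, by Pearson's correlation of log2 CPM after removal of each group's mean, were Aspg, Disp1, Ntrk3, A130010J15Rik and Lman2l. Since the libraries split by their atrial transcripts, no coefficient is given. Whether reads were counted by strand is not given. In the GENCODE M21 annotation, 11 of the 37 genes share exon bases with a gene on the opposite strand. Among them are Ddit3 with Mars, Hsp90b1 with 1810014B01Rik, Manf with Dcaf1, Syvn1 with Mrpl49 and Vcp with 1700022I11Rik. If strand was not kept, reads in these overlaps could belong to either gene.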

How the data were processed

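RNA from 8 left ventricles was sequenced from TruSeq libraries of total RNA, per the labels' protocols. The authors deposited raw counts per gene. They also deposited a table with a mean signal per gene (baseMean), log2 fold changes with standard errors, a test score, p-values and adjusted p-values, whose 8 normalised per-sample columns were not used. The submitters' processing notes name STAR 2.6, Trim Galore 0.4.0, bcl2fastq 1.8.4 and DESeq2 1.22.1, with no order. They list the human build hg38, while the identifiers are of mouse C57BL/6NJ, so no coordinate is taken from the files. How reads were counted, and with which strand setting, is not given in the sources used here. Rows without a name held 9.19% to 10.5% of a library's counts and were kept.

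The edgeR quasi-likelihood test (edgeR 4.0.16, R 4.3.3) was run on the counts with TMM factors and without covariates, after filterByExpr at a minimum count of 10. Its p-values were adjusted over all genes by Benjamini-Hochberg, with a threshold of 0.05. CPM use TMM-scaled totals, and the SE is the log2 fold change divided by the root of F. The p-values set each group difference against the spread within the groups of these 8 libraries, estimated with information shared over genes. That spread includes the unlabelled difference in atrial transcripts. DESeq2 1.42.0, limma 3.58.1 (voom), other scalings, no filter, thinning to the smallest total, leaving out each library, the libraries richest in adipocyte transcripts or those without Myl7 above 200 CPM, and an atrial covariate were the alternatives. The test was checked on simulated data. Replicates are numbered in accession order. The members, the gene lists and the alternatives were chosen with earlier results of these data known. All 37 members are accounted for, and up to 3 genes with the smallest p are named from each related list. Of the related genes 18 were matched through RefSeq synonyms, and 6 of the 162 had no row.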

Additional observations from a re-analysis of the deposited data

Results flagged for a closer look

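Of 134 sets of 4 libraries examined, 1 group and gene each, 7 held a library far from the other 3. Chance gives about 1 in 20 such sets. Canx, the lectin calnexin, had 404 CPM in HFD-LNAME 2, against 448 to 451 CPM in the other HFD-LNAME libraries, and 395 CPM in Normal Chow 4, against 450 to 454 CPM in the other Normal Chow libraries. Syvn1, the ubiquitin ligase of degradation, had 21.7 CPM in HFD-LNAME 1, against 24.0 to 24.4 CPM in the rest of its group. Dnajb11, a co-chaperone of BiP, had 53.7 CPM in Normal Chow 4, against 60.0 to 61.2 CPM, and Asns, asparagine synthetase, had 2.56 CPM in Normal Chow 3, against 1.52 to 1.65 CPM. Among the related genes, Creb3 had 26.2 CPM in HFD-LNAME 4, against 29.4 to 29.5 CPM in the other libraries of that group, and Mapk8 had 38.6 CPM in HFD-LNAME 3, against 30.4 to 31.6 CPM.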

How the results depend on the processing

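No unfolded protein response gene was called at an adjusted p of 0.05 in any of 18 settings, and their median log2 fold change kept within the spread between replicates. Over all genes, 2 calls became 161 with DESeq2, 34 with no filter on low counts, 1 after thinning to the smallest total, and 0 with limma-voom, without HFD-LNAME 2 and 3, within the 5 libraries with Myl7 above 200 CPM and with the atrial covariate. With 1 library left out they ranged from 0 (without HFD-LNAME 2 or 4, or Normal Chow 1, 2 or 4) to 3 (without Normal Chow 3), with 1 without HFD-LNAME 1. The number of these genes at an unadjusted p under 0.05, 1 in the fit of 8 libraries, was 2 without HFD-LNAME 2 and 3, 5 within the 5 libraries and 5 with the covariate (7.7%, 8.21% and 10.6% of all genes), and 1 to 3 with 1 library left out (7.8% to 10.3% of all genes). The number without overlap, 1 among 8 libraries, was 6 without HFD-LNAME 2 and 3, against 17% of all genes, 11 within the 5 libraries, against 25.2%, and 1 to 3 with 1 library left out, against 8.76% to 11.3%. Fewer libraries make overlap rarer. The cause of the other changes was not tested. Of the 36 genes, 16 kept their sign in all settings. No paired analysis was possible because the labels carry no replicate numbers shared between the groups.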
